A study of Mus musculus with 16 samples.

Results

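Gpr17, Bmp4, Enpp6, Bcas1, Tmem163, Kif19a, Cnksr3, Rras2, Itpr2 and Tns3 are genes of committed oligodendrocyte precursors and of premyelinating oligodendrocytes. They were taken as a list of 10 gene symbols, matched to Ensembl identifiers, out of 55335 genes counted. No value measured in these libraries enters the rule, but the list was chosen with earlier results of these data known. All 10 passed the low-count filter, which 19764 genes passed in all.

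Oligodendrocytes form from dividing precursor cells, which first leave the cell cycle as committed precursors, then extend branched processes as premyelinating cells and last wrap axons in myelin. The genes described here are known for being transient in that course: they are switched on at commitment, and several are switched off again once the myelin genes are high. Triiodothyronine (T3), the active thyroid hormone, acts through nuclear receptors that bind DNA in pairs with retinoid X receptors, and it is known to promote the passage from precursor to myelinating cell.

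RNA was measured in mouse oligodendrocyte precursor cells grown from neural stem cells, of a mixed C57BL6J/129svEmx background, after 4 days in monolayer. There were 4 groups of 4 libraries: WT-labelled (Rxrg present) and RXRgKO-labelled (both copies of Rxrg described as lost), each untreated or treated with T3 for 24 h. Libraries held 18262279 to 42588442 gene counts. The labels do not tell whether a group's libraries stem from different cultures or animals. The p-values therefore set differences between groups only against the spread of these libraries, and that spread may be technical.

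Rxrg, the targeted gene, went against the labels: it lay at 1.137 to 1.789 CPM (read counts relative to the normalised library size) in untreated WT-labelled libraries and at 3.78 to 4.83 in untreated RXRgKO-labelled ones, and with T3 at 0.371 to 0.960 and 4.27 to 5.46. Counts per gene do not show which exons the reads came from. Genotypes are therefore given as labels throughout. Libraries within a group also fell into sets that differed from each other beyond their spread within a set (chi-square per gene 1.503 to 2.124 within sets, 4.94 to 9.62 between). WT-labelled replicate 1 stood apart from replicates 2 to 4 in both treatments. Under the RXRgKO label, 2 libraries of each treatment had 1.39 to 3.75 CPM of Xist, the RNA of the inactive X chromosome, and the other 2 had 543 to 723 CPM. These are called the sets lacking and with Xist. Under the WT label Xist differed by treatment, at 1198 to 1382 CPM in untreated replicates 2 to 4 and 276 to 365 with T3. WT-labelled replicate 1 had 526 CPM untreated and 401 with T3. Libraries of a set may share a source, which the labels do not give. WT-labelled replicate 1 was the highest library of its group for each of the 10 genes in both treatments.

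Of the 10 genes, 4 changed with T3 or between genotype labels: the zinc transporter gene Tmem163, the kinesin gene Kif19a, the signalling scaffold gene Cnksr3 and the small GTPase gene Rras2. All 4 rose with T3 under the RXRgKO label, Kif19a and Rras2 also under the WT label. All 4 were lower under the RXRgKO label in untreated cells, and Tmem163, Kif19a and Rras2 also in T3-treated cells. The most marked value was Tmem163 in untreated cells, at 101.2 ± 49.99 CPM (SD, n = 4) under the WT label and 5.88 ± 0.781 under the RXRgKO label. The receptor gene Gpr17, the ligand gene Bmp4, the stage markers Enpp6 and Bcas1, the calcium channel gene Itpr2 and the adhesion gene Tns3 did not pass edgeR's test in any of the 5 comparisons in the fit to all libraries. Some of them passed by DESeq2, with a replicate block or without WT-labelled replicate 1, as given below for each.

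The test was edgeR's quasi-likelihood test over all 19764 genes, and a gene was called at a Benjamini-Hochberg adjusted p under 0.05. With T3 in the WT-labelled libraries, 2 of the 10 were called higher, Kif19a and Rras2, and none lower, where 4.96% of all genes tested were called higher and 3.48% lower. DESeq2 called 1 of the 10 there, Rras2, and gave Kif19a no adjusted p. The replicate numbers were taken as pairs in this comparison, and with the number as a block in a fit to the 8 WT-labelled libraries alone 7 of the 10 were called. Of these, 5 were higher (Kif19a, Rras2, Tmem163, Cnksr3 and Bcas1) and 2 lower (Gpr17 and Bmp4), where 29.4% of 17319 genes were called in either direction. The block counts replicates 2 to 4 as separate pairs, though they are of the same set. Replicates 2 and 4 correlated best with another number. With T3 in the RXRgKO-labelled libraries, all 4 were called higher, against 2.01% of all genes higher and 0.794% lower. Between untreated genotype labels, the same 4 were called lower under the RXRgKO label, against 5.16% of all genes lower and 6.17% higher. With T3, 3 were called lower (Tmem163, Kif19a and Rras2), against 6.8% of all genes lower and 8.1% higher, and Cnksr3 had an adjusted p of 0.0508. The median log2 fold change of the 10 was 0.25 and 0.63 with T3 under the WT and RXRgKO label, and -0.99 and -0.70 between labels without and with T3, where the medians of all genes were -0.03, -0.00, -0.00 and 0.02. For the difference between the 2 T3 responses, edgeR called 0 of the 10 (0.0658% of all genes in either direction), with 2 at an unadjusted p under 0.05, Tmem163 and Cnksr3. DESeq2 called 1, Tmem163, and limma voom 0. The comparisons share libraries with each other, so their calls are not independent.

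Groups did not overlap for 2 of the 10 with T3 under the WT label (7.69% of all genes did not overlap and were higher) and for 6 with T3 under the RXRgKO label (7.87%), the 4 called ones with Enpp6 and Bcas1. Every RXRgKO-labelled library lay below every WT-labelled library for 6 of the 10 without T3 (9.36% of all genes) and for 6 with T3 (8.91%). In both cases these were Enpp6, Tmem163, Kif19a, Cnksr3, Rras2 and Tns3. These are bulk samples, in which fewer cells of a stage and less RNA per cell cannot be told apart.

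**Figure D1:**
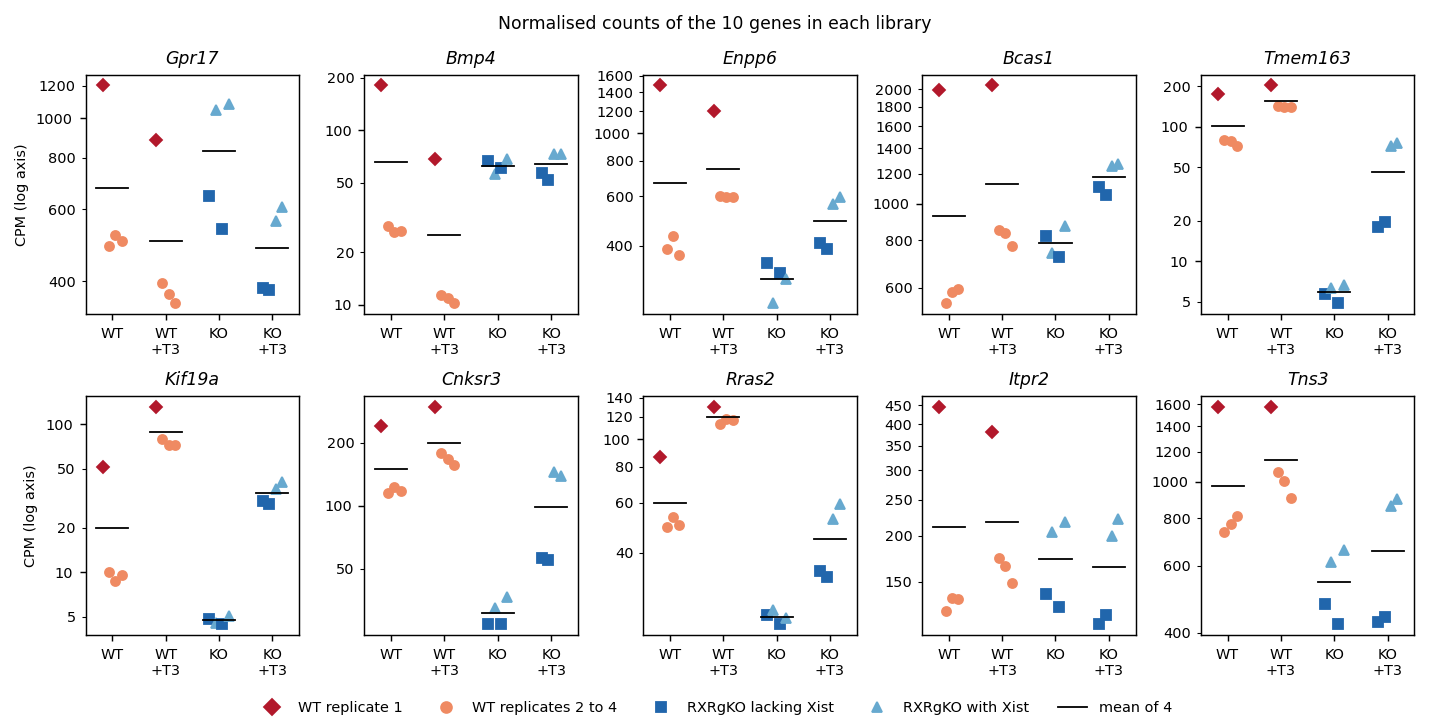
Normalised counts (CPM, log axis) of the 10 genes in each of the 16 libraries, by genotype label and T3; symbols mark the library sets and bars the mean of 4. WT-labelled replicate 1 is the highest WT-labelled point in every panel, and Tmem163 is at 4.85 to 6.63 CPM in untreated RXRgKO-labelled libraries against 71.5 to 176 in untreated WT-labelled ones.

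**Figure D2:**
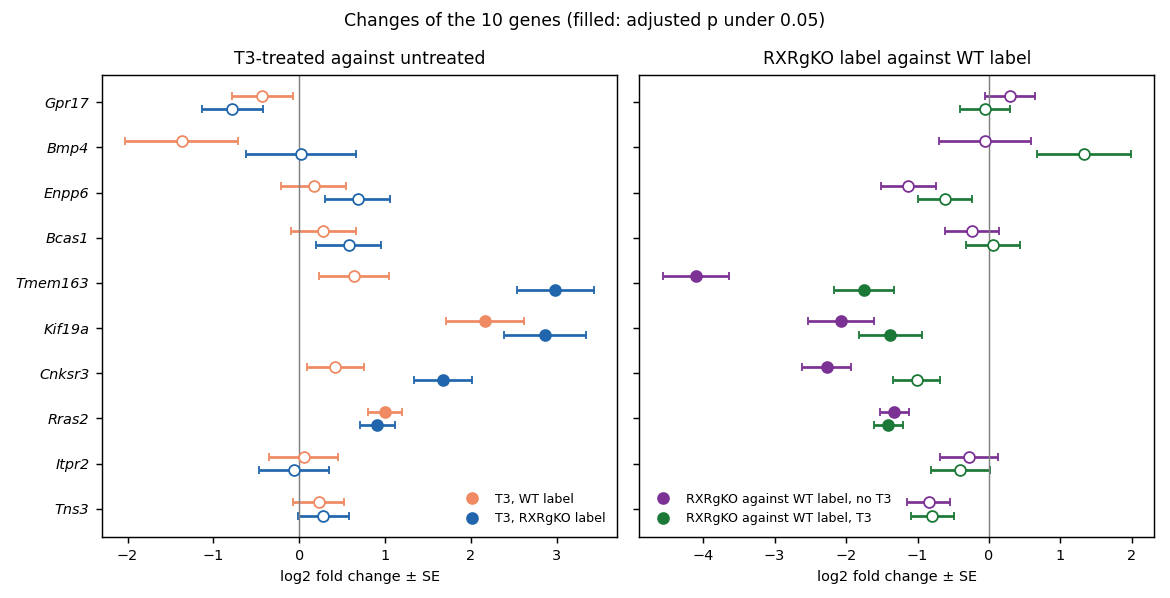
Log2 fold changes ± SE of the 10 genes with T3 (left) and between genotype labels (right), from edgeR's fit to all 16 libraries; filled points have an adjusted p under 0.05. The filled points are those of Tmem163, Kif19a, Cnksr3 and Rras2, positive on the left and negative on the right.

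The library sets bear on these counts. Without WT-labelled replicate 1 in either treatment, 4 of the 10 were called higher and 1 lower with T3 in the WT-labelled libraries (background 13.1% in either direction). In the RXRgKO-labelled libraries 6 were called higher and 1 lower with T3 (7.49%). Between labels, 2 were called higher and 4 lower under the RXRgKO label without T3 (14.7%), and 2 higher and 3 lower with T3 (20.5%). In both cases the 2 higher ones were Bmp4 and Bcas1. Such fits, here and below, hold only WT-labelled libraries of the same set and count them as independent replicates. When the counts of each set were summed, which leaves 2 values a group, 1 of the 13 calls held, that of Tmem163 between untreated labels (log2 fold change -4.47, adjusted p = 0.0371). Without the libraries with Xist, 0 of the 10 were called with T3 in the RXRgKO-labelled libraries by edgeR's test (background 0.597%), with 4 at an unadjusted p under 0.05 and 2 libraries left per group. The change of Kif19a was then 2.71 (2.86 over all libraries), that of Tmem163 1.85 (2.98), that of Cnksr3 1.06 (1.68) and that of Rras2 0.56 (0.91).

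For 3 of the 4 genes that changed, RefSeq's table for GRCm38.p6 holds a start site, and the 250 bases before it are shown so that the changed genes can be compared. Windows of 250 bases before to 50 after the start were searched on both strands in 32851 RefSeq windows, of which 7 belonged to the 10 genes. The searched letters were AGGTCA, the core of sites bound by nuclear receptors (16.3% of all windows), its repeat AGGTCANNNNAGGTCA, bound by thyroid hormone receptor pairs (0.0152%; it contains the first motif), CTGGCAC (5.01%) and CTGGTAC (2.24%), bound by the myelin regulatory factor Myrf, and ACAAAG (18.7%) and ACAATG (12.6%), the core of Sox factor sites. None of the 7 windows held the first 4 motifs. Cnksr3 held ACAAAG once, in capitals below, and Enpp6 and Tns3 held ACAATG once each. The 3 sequences are from chr1:127678022-127678271 (Tmem163, which lies inside the gene as GENCODE draws it), chr10:7212238-7212487 (Cnksr3) and chr7:114117782-114118031 (Rras2), all on the minus strand and written 5′ to 3′ along the gene.
Tmem163: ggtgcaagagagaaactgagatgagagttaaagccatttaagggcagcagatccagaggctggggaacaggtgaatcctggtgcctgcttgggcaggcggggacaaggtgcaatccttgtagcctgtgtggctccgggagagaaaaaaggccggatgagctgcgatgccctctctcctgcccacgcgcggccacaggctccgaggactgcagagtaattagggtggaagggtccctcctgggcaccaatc
Cnksr3: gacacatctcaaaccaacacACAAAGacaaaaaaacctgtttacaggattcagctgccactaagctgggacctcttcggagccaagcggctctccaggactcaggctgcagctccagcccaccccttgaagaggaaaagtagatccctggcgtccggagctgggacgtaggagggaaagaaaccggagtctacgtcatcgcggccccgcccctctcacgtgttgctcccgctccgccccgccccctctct
Rras2: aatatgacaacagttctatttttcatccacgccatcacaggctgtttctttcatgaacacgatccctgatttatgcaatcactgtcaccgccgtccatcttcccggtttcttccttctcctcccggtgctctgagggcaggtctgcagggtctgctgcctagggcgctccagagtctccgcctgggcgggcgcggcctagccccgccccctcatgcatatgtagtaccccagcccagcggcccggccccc
The Cnksr3 and Rras2 windows end directly before the gene's GENCODE end coordinate. G and C made up 58.8%, 59.2% and 59.6% of the 3 printed stretches. A match is a description of letters, and the absence of a match says only that these letters are not in the window.

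Tmem163 (ENSMUSG00000026347; GRCm38 chromosome 1, 127486546 to 127679548, minus strand) codes for a zinc transporter of the cell surface and of intracellular vesicles. Untreated WT-labelled libraries held 176, 79.2, 78.1 and 71.5 CPM in replicates 1 to 4, and T3-treated ones 204, 142, 140.3 and 142. Untreated RXRgKO-labelled libraries held 5.72, 6.32, 4.85 and 6.63 CPM, and T3-treated ones 18.0, 19.5, 72.0 and 76.4. Every RXRgKO-labelled library was below every WT-labelled library of the same treatment. The T3-treated RXRgKO-labelled libraries split by set, with those lacking Xist at 18.0 and 19.5 CPM.

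Under the RXRgKO label Tmem163 rose with T3 by 2.98 on the log2 scale (7.91-fold, SE 0.45, adjusted p = 0.000967, higher in 4 of 4 libraries). Under the WT label its value was 0.63 (SE 0.41, adjusted p = 0.395), with the treated and untreated libraries overlapping through replicate 1. With the replicate block on those libraries it was 0.71 (adjusted p = 0.00132), higher in 4 of 4 same-numbered pairs, of which 2 to 4 are of the same set. It was lower under the RXRgKO label, at a log2 fold change of -4.10 in untreated libraries (SE 0.47, adjusted p = 1.98e-05) and -1.75 in treated ones (SE 0.42, adjusted p = 0.00822). The difference of the 2 T3 responses was 2.35 (SE 0.59, unadjusted p = 0.00103, adjusted p = 0.228), which edgeR did not call and DESeq2 did (2.31, adjusted p = 0.0105). Over all alternatives the adjusted p of that difference ran from 0.00763 to 1. Within sets, the T3 change of mean log2 CPM was 0.21 in WT-labelled replicate 1, 0.89 in replicates 2 to 4, 1.82 in the RXRgKO-labelled set lacking Xist and 3.5 in the set with Xist. Tmem163 exons overlap those of Mgat5 on the other strand by 152 bases, 3.54% of their length, and the sources used here do not say whether the counting used strand.

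Itpr2 (ENSMUSG00000030287; chromosome 6, 146108299 to 146502223, minus strand) codes for an inositol trisphosphate receptor, a channel that releases calcium from the endoplasmic reticulum. It lay at 447, 125, 136 and 135 CPM in untreated WT-labelled libraries and at 382, 174, 166 and 149 with T3. The RXRgKO-labelled libraries were at 139, 204, 129 and 218 CPM untreated, and at 115, 122, 200.1 and 222 with T3. All groups overlapped, and in both RXRgKO-labelled groups the set with Xist was the higher. The log2 fold changes were 0.05 and -0.07 with T3 and -0.29 and -0.40 between labels (SE 0.41 each, adjusted p 0.606 to 0.965). The T3 change under the WT label was 0.30 without WT-labelled replicate 1 (adjusted p = 0.519). The differences between labels then turned to 0.41 without T3 (adjusted p = 0.351) and 0.03 with T3 (adjusted p = 0.959). Of its relatives, Itpr1 rose with T3 under the WT label (0.74, adjusted p = 0.0181) and was higher under the RXRgKO label without T3 (0.80, adjusted p = 0.0077). Itpr3 was higher under the RXRgKO label by 1.12 without T3 (adjusted p = 0.000389) and 0.56 with T3 (adjusted p = 0.042).

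Rras2 (ENSMUSG00000055723; chromosome 7, 114046782 to 114117781, minus strand) codes for a small GTPase of the Ras family, known to feed the PI3 kinase and Akt pathway in myelinating cells. Untreated WT-labelled libraries held 86.9, 49.1, 53.3 and 50.2 CPM, and T3-treated ones 130.2, 113, 118 and 117. Of the RXRgKO-labelled libraries, the untreated held 24.3, 25.2, 22.5 and 23.7 CPM, and the treated ones 34.6, 33.0, 52.4 and 59.5. No 2 of the 4 groups overlapped except the treated RXRgKO-labelled and the untreated WT-labelled libraries. Rras2 and Kif19a were the members called in each of the 4 comparisons between groups.

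With T3, Rras2 rose by 1.00 (1.99-fold, SE 0.20, adjusted p = 0.00465) under the WT label and by 0.91 (SE 0.20, adjusted p = 0.0208) under the RXRgKO label, and the difference of the 2 responses was -0.09 (SE 0.28). The RXRgKO-labelled libraries differed from the WT-labelled by a log2 fold change of -1.32 (SE 0.20, adjusted p = 0.000312) when untreated and -1.41 (SE 0.20, adjusted p = 0.000141) after T3. The call for T3 under the RXRgKO label ended in 6 of 16 fits that each left out 1 library: any untreated RXRgKO-labelled library (adjusted p 0.0587 to 0.0873) or treated RXRgKO-labelled replicate 3 or 4 (0.0954 and 0.119). Within sets the T3 change was 0.58 in WT-labelled replicate 1, 1.19 in replicates 2 to 4, 0.53 in the set lacking Xist and 1.19 in the set with Xist. Its relatives Rras and Mras were not called: Rras had log2 fold changes of 0.35 and 0.44 with T3, and Mras of -0.14 and 0.12.

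Cnksr3 (ENSMUSG00000015202; chromosome 10, 7119063 to 7212237, minus strand) codes for a scaffold protein of the connector enhancer of kinase suppressor of Ras family, which brings signalling proteins together at the membrane. It lay at 241, 115, 123 and 118 CPM in untreated WT-labelled libraries and at 297, 178, 167 and 156 with T3. In the RXRgKO-labelled libraries it lay at 27.3, 32.6, 27.2 and 36.5 CPM untreated and at 56.4, 55.2, 144 and 139 with T3. All RXRgKO-labelled libraries were below the WT-labelled libraries of the same treatment, and among the T3-treated ones the set with Xist was the higher.

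Under the RXRgKO label Cnksr3 rose with T3 by 1.68 (3.20-fold, SE 0.34, adjusted p = 0.0111), and under the WT label its value was 0.42 (SE 0.33, adjusted p = 0.505). With the replicate block the WT-labelled value was 0.43 (adjusted p = 0.00201), higher in 4 of 4 same-numbered pairs, of which 2 to 4 are of the same set. The difference of the responses was 1.26 (SE 0.47, unadjusted p = 0.0162, adjusted p = 0.677). Between labels Cnksr3 was lower, at a log2 fold change of -2.27 (SE 0.35, adjusted p = 0.000297) without T3. With T3 the value of -1.01 (SE 0.33, adjusted p = 0.0508) missed the threshold. It passed by DESeq2 (-1.05, adjusted p = 0.00978), limma voom (-1.13, adjusted p = 0.0292) and with DESeq2's size factors in edgeR (-1.04, adjusted p = 0.0371). The T3 call under the RXRgKO label ended without untreated replicate 1 (adjusted p = 0.0519), treated replicate 3 (0.0573) or treated replicate 4 (0.0598). Within sets the T3 change was 0.30, 0.49, 1.03 and 2.04 in WT-labelled replicate 1, WT-labelled replicates 2 to 4, the set lacking Xist and the set with Xist. Its relatives Cnksr1 and Cnksr2 were not called, with Cnksr2 at 0.40 and 0.50 between labels.

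Kif19a (ENSMUSG00000010021; chromosome 11, 114765388 to 114790739, plus strand) codes for a kinesin motor that shortens microtubules and is best known for setting the length of motile cilia. In untreated WT-labelled libraries it lay at 50.9, 10.0, 8.68 and 9.53 CPM, and with T3 at 132, 79.2, 72.8 and 72.3. In untreated RXRgKO-labelled libraries it lay at 4.83, 4.51, 4.43 and 5.08 CPM, and with T3 at 30.2, 29.1, 36.6 and 40.9. In each genotype label every treated library was above every untreated library. Untreated RXRgKO-labelled libraries held 104 to 170 counts of the gene each.

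Kif19a rose with T3 by 2.167 (4.49-fold, SE 0.45, adjusted p = 0.00596) under the WT label and by 2.86 (7.25-fold, SE 0.48, adjusted p = 0.00249) under the RXRgKO label, and the difference was 0.69 (SE 0.63, adjusted p = 1). In the RXRgKO-labelled libraries it was lower, at a log2 fold change of -2.07 in untreated cells (SE 0.47, adjusted p = 0.00678) and -1.38 in T3-treated cells (SE 0.44, adjusted p = 0.0441). The T3 change under the WT label and the difference between untreated labels turned on WT-labelled replicate 1. Without it the T3 change under the WT label was 2.98 (adjusted p = 3.4e-08), and the difference between untreated labels was -0.99 (adjusted p = 0.000145). The call between T3-treated labels ended when any of the 8 treated or any of the 4 untreated RXRgKO-labelled libraries was left out, 12 of 16 fits, with adjusted p up to 0.123. Within sets the T3 change was 1.37, 2.98, 2.66 and 3.00 in the order given for Cnksr3. Of 7 markers of ciliated ependymal cells tested, 5 were higher under the RXRgKO label without T3 and 6 with T3 (6.17% and 8.1% of all genes). Their summed level was 20.6 to 25.6 CPM under the WT label and 49.4 to 86.1 under the RXRgKO label, and with T3 31.0 to 43.4 and 67.5 to 103.9. With T3, Foxj1 (0.79, adjusted p = 0.0116) and Dnah5 (1.48, adjusted p = 0.000342) rose under the WT label. Under the RXRgKO label Dnah5 rose (0.90, adjusted p = 0.0217). The other 5 and 6 were not called, where 4.96% and 2.01% of all genes were called higher. The part of such cells in the Kif19a values was not tested. Kif18b, another gene of the kinesin family, was lower under the RXRgKO label, at -0.84 (adjusted p = 0.00843) without T3 and -0.98 (adjusted p = 0.00231) with T3.

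Tns3 (ENSMUSG00000020422; chromosome 11, 8431652 to 8664535, minus strand) codes for tensin 3, which ties integrin adhesions to the actin skeleton and marks immature oligodendrocytes. It lay at 1572, 736, 774 and 813 CPM in untreated WT-labelled libraries and at 1579, 1063, 1002 and 909 with T3. The RXRgKO-labelled libraries held 476, 614, 420.4 and 660 CPM untreated, and at 426, 438, 863 and 901 with T3. All RXRgKO-labelled libraries were below the WT-labelled libraries of the same treatment, by a narrow margin with T3. The log2 fold change between labels was -0.84 in untreated libraries (SE 0.30, adjusted p = 0.0866) and -0.79 in treated ones (SE 0.30, adjusted p = 0.0905), which edgeR did not call. DESeq2 called both (-0.84, adjusted p = 0.0289, and -0.82, adjusted p = 0.0281). Without WT-labelled replicate 1 the values were -0.50 (adjusted p = 0.256) and -0.58 (adjusted p = 0.136). With T3 the values were 0.22 and 0.28 (SE 0.30 each), not called. Tns1, a related tensin gene, was called lower under the RXRgKO label (-1.90, adjusted p = 0.00115, and -1.51, adjusted p = 0.00508), and Tns2 was not called (0.68 and 0.17).

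Enpp6 (ENSMUSG00000038173; chromosome 8, 46986887 to 47096762, plus strand) codes for a choline-specific phosphodiesterase and marks newly forming oligodendrocytes. It lay at 1479, 389, 433 and 372 CPM in untreated WT-labelled libraries and at 1203, 600.3, 597 and 597 with T3. RXRgKO-labelled libraries held 348, 250.1, 319 and 305 CPM untreated and at 410.2, 389, 564 and 595 with T3. Replicate 1 went the other way from replicates 2 to 4 with T3 under the WT label. The fitted log2 fold change there was 0.17 (SE 0.38, adjusted p = 0.847), and without replicate 1 it was 0.58 (adjusted p = 0.0322), past the threshold. In the RXRgKO-labelled libraries it was 0.68 (SE 0.38, adjusted p = 0.404), with groups that did not overlap, and 0.68 (adjusted p = 0.0108) when the spread was estimated without WT-labelled replicate 1. Between labels it was -1.13 (SE 0.38, adjusted p = 0.0738) without T3, which DESeq2 called (-1.12, adjusted p = 0.0201), and -0.61 (SE 0.38, adjusted p = 0.34) with T3. Without that replicate the values were -0.37 (adjusted p = 0.135) and -0.28 (adjusted p = 0.236). Of its relatives, Enpp1 was higher under the RXRgKO label (1.79, adjusted p = 0.00103, and 1.43, adjusted p = 0.00611) and Enpp4 lower (-0.48, adjusted p = 0.0358, and -0.44, adjusted p = 0.0459). Enpp2, which codes for autotaxin and is itself an oligodendrocyte gene, rose with T3 under the WT label (0.90, adjusted p = 0.0117) and was lower under the RXRgKO label with T3 (-0.85, adjusted p = 0.00966).

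Bcas1 (ENSMUSG00000013523; chromosome 2, 170346991 to 170427845, minus strand) codes for a brain-enriched protein found in premyelinating and actively myelinating cells. Untreated WT-labelled libraries held 1992, 546, 583 and 595 CPM, and T3-treated ones 2049, 852, 836 and 772. The untreated RXRgKO-labelled libraries held 822, 740.2, 722 and 872 CPM, and the treated ones 1109, 1056, 1257 and 1274. In WT-labelled replicates 2 to 4 and in the RXRgKO-labelled libraries each treated library was above each untreated one. The fitted log2 fold change with T3 was 0.28 (SE 0.38, adjusted p = 0.724) under the WT label and 0.57 (SE 0.38, adjusted p = 0.486) under the RXRgKO label. Without WT-labelled replicate 1 these were 0.51 (adjusted p = 0.0112) and 0.57 (adjusted p = 0.00399), past the threshold. Between labels the value turned with that replicate: it was -0.24 (SE 0.38, adjusted p = 0.798) without T3 and 0.06 with T3, and without the replicate 0.47 (adjusted p = 0.0106) and 0.53 (adjusted p = 0.00384). Bcas1 exons overlap those of the antisense gene Bcas1os1 by 440 bases, 11.7% of their length.

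Gpr17 (ENSMUSG00000052229; chromosome 18, 31942997 to 31949636, minus strand) codes for a G protein-coupled receptor of committed precursors that holds back the last steps of maturation. It lay at 1203, 487, 517 and 501 CPM in untreated WT-labelled libraries and at 884, 396, 371 and 353 with T3. RXRgKO-labelled libraries were at 646, 1049, 537 and 1086 CPM untreated and at 384, 381, 560.2 and 605 with T3. Treated libraries had the lower mean log2 CPM in each of the 4 sets, at differences of -0.44, -0.43, -0.62 and -0.87, and the groups overlapped because the sets lay at different levels. The fitted T3 change was -0.43 (SE 0.36, adjusted p = 0.519) under the WT label and -0.78 (SE 0.36, adjusted p = 0.294) under the RXRgKO label. With the replicate number as a block in the 8 WT-labelled libraries it was -0.44 (adjusted p = 0.00236). Without WT-labelled replicate 1 it was -0.80 (adjusted p = 0.0488) under the RXRgKO label. Between labels it was 0.29 without T3 and -0.05 with T3 (adjusted p = 0.716 and 0.955), and without that replicate 0.74 (adjusted p = 0.0618) and 0.38 (adjusted p = 0.33). Its exons overlap those of Lims2, on the other strand, by 188 bases (3.62%), and Lims2, itself a gene of committed precursors, fell with T3 by 1.28 under the WT label (adjusted p = 0.00122) and by 1.02 under the RXRgKO label (adjusted p = 0.0137).

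Bmp4 (ENSMUSG00000021835; chromosome 14, 46383520 to 46390669, minus strand) codes for a secreted ligand that committed precursors make and that is known to oppose myelin formation and favour astrocytes. In untreated WT-labelled libraries it lay at 181, 28.3, 26.3 and 26.6 CPM, and with T3 at 68.5, 11.3, 10.9 and 10.2. In untreated RXRgKO-labelled libraries it lay at 66.7, 56.1, 60.6 and 68.3 CPM, and with T3 at 57.3, 51.8, 73.1 and 72.9. Each WT-labelled set had less Bmp4 with T3, at -1.40 in replicate 1 and -1.31 in replicates 2 to 4, while the RXRgKO-labelled sets were at -0.22 and 0.24. The fitted T3 change was -1.37 (SE 0.66, adjusted p = 0.236) under the WT label, with a spread set by replicate 1. It was -1.33 without that replicate (adjusted p = 3.94e-05) and -1.35 with the replicate block (adjusted p = 1.2e-06), both past the threshold. Without replicate 1 the WT-labelled libraries are all of the same set, and the block counts replicates 2 to 4 as separate pairs.

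Between labels the Bmp4 value also turned on WT-labelled replicate 1. Without T3 it was -0.06 (SE 0.64, adjusted p = 0.974) over all libraries and 1.23 (adjusted p = 2.63e-05) without the replicate. With T3 it was 1.33 (SE 0.66, adjusted p = 0.21) over all libraries, 2.57 (adjusted p = 3.15e-08) without the replicate, and 1.96 (adjusted p = 0.0181) with the replicate block over all 16 libraries. The T3 response difference was 1.39 (SE 0.92, adjusted p = 1), and 1.34 (adjusted p = 0.0047) without the replicate.

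The 27 other genes of the BMP pathway (ligands, receptors, Smad proteins, Id targets and secreted inhibitors) were all tested. With T3 under the WT label 1 was called higher, the decoy receptor gene Bambi (0.81, adjusted p = 0.0118), and 2 lower, Nog, which codes for the BMP antagonist noggin (-0.998, adjusted p = 0.00868), and the BMP target Id4 (-0.69, adjusted p = 0.0159). Of all genes tested, 4.96% were called higher there and 3.48% lower, so these counts lie near the share of all genes. In RXRgKO-labelled libraries edgeR called 0 of 27 with T3 (2.01% of all genes higher and 0.794% lower), with 1 at an unadjusted p under 0.05 and 0 by DESeq2 or limma voom. Without WT-labelled replicate 1, 2 were called higher there (background 7.49% in either direction). Between untreated labels 3 were called higher under the RXRgKO label, Bmp6 (1.45), Fst, which codes for follistatin (1.75), and Bambi (1.503), and 1 lower, the inhibitory Smad gene Smad7 (-1.93, adjusted p = 3.39e-05). The shares of all genes were 6.17% higher and 5.16% lower. With T3, 9 were called higher, among them the targets Id1 (1.90), Id2 (0.81) and Id3 (1.69), and 1 lower, Smad7 (-2.22, adjusted p = 8.25e-06), where 8.1% of all genes were higher and 6.8% lower. Without WT-labelled replicate 1, 10 were called higher and 3 lower without T3 (background 14.7% in either direction), and 13 higher and 1 lower with T3 (20.5%). The receptor genes Bmpr1a, Bmpr1b and Bmpr2 were not called, with log2 fold changes between labels of -0.13 to 0.63.

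**Figure D3:**
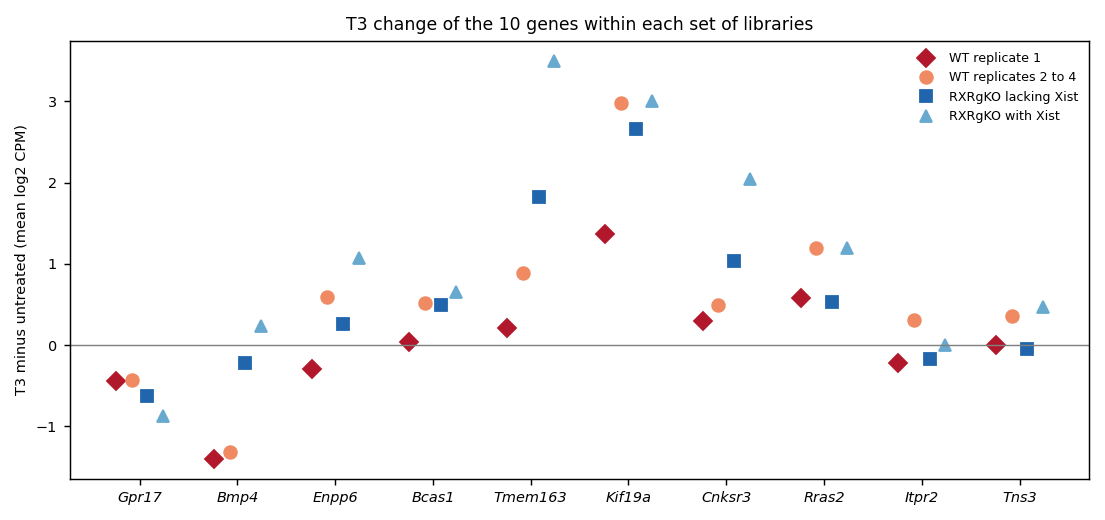
T3-treated minus untreated mean log2 CPM of each of the 10 genes within the 4 library sets (1, 3, 2 and 2 libraries per treatment). Kif19a, Rras2, Tmem163, Cnksr3 and Bcas1 are above 0 in all sets (Bcas1 at 0.04 in WT-labelled replicate 1), and Gpr17 is below 0 in all. Bmp4 is at -1.40 and -1.31 in the WT-labelled sets and near 0 in the RXRgKO-labelled ones.

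Sets were matched across treatments by replicate number or by Xist, a match that the labels do not give. Only if they match is the difference between sets removed from the T3 change. Within sets the median change over the 10 genes was 0.02 in WT-labelled replicate 1 and 0.50 in WT-labelled replicates 2 to 4. It was 0.38 in the set lacking Xist and 0.86 in the set with Xist. Of the 10, 6, 8, 6 and 8 were positive, where 46.4%, 46.1%, 47.1% and 51.9% of all 19764 genes were. The set with Xist had the highest value of the 4 for Enpp6, Bcas1, Tmem163, Kif19a, Cnksr3, Bmp4 and Tns3. These are values of 1 to 3 libraries, with no test.

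Per length of exon, Bcas1 was the most abundant of the 10 in every group, at 246, 299, 209 and 311 CPM per kilobase (untreated and T3-treated WT-labelled, untreated and T3-treated RXRgKO-labelled). In untreated WT-labelled libraries Gpr17 (130.4), Enpp6 (104) and Tns3 (87.1) followed, then Cnksr3 (38.9), Bmp4 (29.1), Tmem163 (23.6), Rras2 (16.9), Itpr2 (14.2) and Kif19a (4.87). Only between Tns3 and Cnksr3 did neighbours in that order not overlap. In untreated RXRgKO-labelled libraries the order was Bcas1, Gpr17 (159.7), Tns3 (48.5), Enpp6 (47.7), Bmp4 (28.0), Itpr2 (11.7), Cnksr3 (8.05), Rras2 (6.73), Tmem163 (1.37) and Kif19a (1.16). There Bcas1 overlapped with Gpr17, Tns3 with Enpp6, Itpr2 with Cnksr3 and Tmem163 with Kif19a, while the other neighbours did not overlap. With T3 Kif19a reached 21.9 under the WT label and 8.40 under the RXRgKO label, and Bmp4 was the lowest of the 10 under the WT label at 11.2, where it overlapped with Itpr2 at 14.7.

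The genes most like the 4 changed ones over the 16 libraries were found among 15315 protein-coding genes by the mean absolute difference of log2 CPM centred on its mean. Nearest to Tmem163 were the glutamate receptor gene Grm7 (0.28) and Cldn11, which codes for the tight junction protein of myelin (0.30). Nearest to Kif19a were Hr, a nuclear receptor corepressor gene (0.29), and the myelin gene Mog (0.42). Nearest to Cnksr3 were Fhl2 (0.16) and Nfe2l3 (0.17), and nearest to Rras2 were Klhl2 (0.07) and Tmem88b (0.11). The median difference over all compared genes was 1.72, 1.5, 0.99 and 0.78 for the 4 genes in that order.

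A second list, also chosen with earlier results of these data known, held 22 other genes of the same stages, and all were tested. Between untreated labels 13 were called lower under the RXRgKO label and 1 higher (median -1.09), and with T3 12 lower and 2 higher (median -0.91). Of all genes tested, 5.16% and 6.8% were called lower without and with T3, and 6.17% and 8.1% higher. Casr, the calcium-sensing receptor gene, had the most negative values (-4.58, adjusted p = 2.31e-07, and -6.22, adjusted p = 1.55e-08), which rest on few counts, since its lowest library held 0.077 CPM. Frmd4a (-2.36 and -1.96), Pik3r3, which codes for a PI3 kinase regulatory subunit (-2.05 and -2.31), and Arpc1b, which codes for a subunit of the actin-branching complex (-2.16 and -2.12), were lower in both. Lims2 was higher in both (0.70 and 0.96), and Neu4, a sialidase gene, was higher with T3 (1.68, adjusted p = 0.0326).

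With T3, 4 of the 22 were called higher and 1 lower under the WT label (median 0.29), and 3 higher and 1 lower under the RXRgKO label (median 0.31). Of all genes, 4.96% and 2.01% were called higher under the WT and RXRgKO label, and 3.48% and 0.794% lower. Arpc1b rose by 1.65 (adjusted p = 2.12e-05) and 1.69 (adjusted p = 2.93e-05), and Fam107b by 0.95 (adjusted p = 8.22e-05) and 0.53 (adjusted p = 0.0198). Casr (1.56) and Col9a3, a collagen IX gene (0.78), rose under the WT label, and Mpzl1 (1.07) rose under the RXRgKO label. Lims2 fell under both. Without WT-labelled replicate 1 the counts between labels were 14 lower and 2 higher without T3 (background 14.7% in either direction), and 12 lower and 3 higher with T3 (20.5%).

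**Figure D4:**
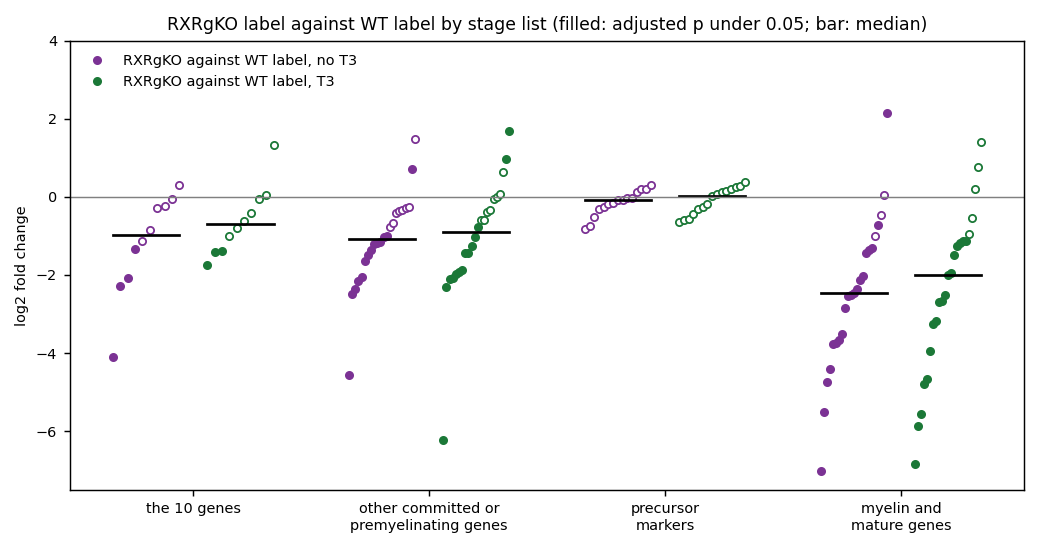
Log2 fold changes between genotype labels, without and with T3, for the 10 genes and 3 other lists. These are other genes of the same stages, precursor markers (not limited to that stage), and myelin and mature genes. Each point is a gene, filled where its adjusted p is under 0.05, and bars are medians. The medians are -0.99 and -0.70 for the 10 genes, -1.09 and -0.91 for the other genes of these stages, -0.07 and 0.03 for precursor markers and -2.47 and -2.00 for myelin genes.

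The lists for the stages before and after lay at other levels of change. Of 15 genes listed as precursor markers, edgeR, DESeq2 and limma voom each called 0 between labels without or with T3. By edgeR, 1 had an unadjusted p under 0.05 in each (medians -0.07 and 0.03). Olig1, Olig2 and Sox10 are among the 15, and the list is not limited to genes found only in precursors. Of all genes tested, 5.16% and 6.8% were called lower without and with T3, and 6.17% and 8.1% higher. Without WT-labelled replicate 1, edgeR called 1 marker of the list higher in each (background 14.7% and 20.5% in either direction). Pdgfra, the growth factor receptor gene of precursors, had -0.82 (adjusted p = 0.251) and -0.44 (adjusted p = 0.557). Of 23 genes of myelin and mature oligodendrocytes, 19 were called lower and 1 higher under the RXRgKO label without T3 (median -2.47). With T3, 18 were called lower (median -2.00). The shares of all genes called lower were 5.16% and 6.8%. Mobp (-7.01 and -5.87) and Mbp (-4.74 and -3.94) were among the lower ones. With T3, 13 of the 23 were called higher under the WT label and 9 under the RXRgKO label, Opalin most (3.41 and 5.49). Of all genes, 4.96% and 2.01% were called higher there. The summed level of the myelin list was 14270 to 19640 CPM in untreated WT-labelled libraries and 2159 to 2760 in untreated RXRgKO-labelled ones, and 21900 to 32010 and 3913 to 6276 with T3. The lists were compared by these counts and medians alone.

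Markers of other cell types also moved between the genotype labels. Over all genes tested, 6.17% were called higher under the RXRgKO label without T3 and 8.1% with T3. Of 9 microglia markers tested, 8 were higher under the RXRgKO label with and without T3, and their summed level was 2.28 to 4.27 CPM in all WT-labelled libraries and 5.70 to 31.3 in RXRgKO-labelled ones. Of the microglia markers Aif1 was at 0 in 4 libraries and Itgam in 2, all of them WT-labelled. Of 8 mural cell and fibroblast markers, 6 were higher in both (66.99 to 87.7 CPM under the WT label, 292 to 634 under the RXRgKO label), with Acta2 and Col3a1 the most abundant. The mural cell genes Rgs5 (-1.065 without T3, adjusted p = 0.055, and -0.38 with T3) and Pdgfrb (-0.13 and 0.03) were not called by edgeR. DESeq2 and limma voom each called 1 of the list lower without T3. Of 16 neuron markers, 4 and 11 were higher (1317 to 1908 CPM against 1898 to 2564). The most abundant genes of that list were Map2 and Dcx, of which Map2 was called with T3 and Dcx in neither comparison. Of 6 endothelial markers 3 were higher in both (7.28 to 11.5 CPM against 22.2 to 50.1). Of 12 astrocyte markers edgeR called 0, with 2 and 1 at an unadjusted p under 0.05, limma voom called 0, and DESeq2 called 1 lower without T3. Without WT-labelled replicate 1, edgeR called 1 of them higher without T3 and 2 with T3. Of 6 Schwann cell markers 3 were tested and none was called by edgeR, DESeq2 or limma voom, with 1 and 0 at an unadjusted p under 0.05. Without WT-labelled replicate 1, edgeR called 1 Schwann cell marker higher with T3. The part of these cells in the values of the 10 genes was not tested.

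Some lists also moved with the library sets. Summed astrocyte markers were at 9147 and 16160 CPM in WT-labelled replicate 1, untreated and T3-treated, against 3728 to 6367 in replicates 2 to 4, with Gfap the most abundant of them. Precursor markers were at 6115 and 5743 CPM in that replicate against 3963 to 5097 in the others. Under the RXRgKO label precursor markers were at 2961 to 3582 CPM in libraries lacking Xist and 5033 to 5655 in those with Xist, and astrocyte markers at 5869 to 8665 and 3380 to 5203. The summed level of the 10 genes was 7428 and 6928 CPM in WT-labelled replicate 1, 2566 to 3610 in WT-labelled replicates 2 to 4, 2247 to 2641 in the set lacking Xist and 2982 to 3986 in the set with Xist. What part these differences have in the changes of the 10 genes was not tested.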

How the data were processed

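Per the labels' protocols, libraries were made from poly-A RNA with a dUTP strand-marking kit. bcl2fastq 2.17.1.14, the aligner STAR 2.5.3a, the counter HTSeq 0.6.1p1 and the build mm10 are named in the submitters' processing notes. The sources used here give neither the strand setting nor the annotation release. What the authors deposited is a raw count for each Ensembl identifier, not normalised. Gene counts were 22.4% to 46.7% of the reads accounted for, and 5 HTSeq summary lines were left out. Counts rest on reads without molecular identifiers.

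Symbols and positions came from GENCODE M21 (55154 of 55335 identifiers) and windows from RefSeq. In R 4.3.3, edgeR 4.0.16 (quasi-likelihood, robust, TMM, filterByExpr by group) was fitted to all 16 libraries with a mean per group, in 5 comparisons with Benjamini-Hochberg adjustment over 19764 genes. SE is the absolute log2 fold change over the square root of F, and values in log2 CPM have a prior count of 2. Library sets joined libraries with a chi-square per gene under 3.

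Members, lists, sets and alternatives were chosen with earlier results of these data known. Named were the 10 genes, Rxrg, up to 4 genes per other list and comparison by smallest adjusted p, the 2 most abundant markers per other cell type, and the 2 genes nearest each called member. The text names some of these. Named outside that rule, after their values were seen, were Rras, Mras, Cnksr1, Cnksr2, the Bmpr genes, Id1, Id2, Id3, Col9a3, Neu4, Olig1, Olig2, Mobp, Aif1, Itgam, Pdgfrb and Xist. Same-number correlations for T3 under the WT label were 0.648, 0.247, 0.211 and 0.164 for replicates 1 to 4, so the numbers were taken as pairs there, though replicates 2 and 4 correlated best with another number. Elsewhere at least 1 was below 0, and no pairing was used. Alternatives were DESeq2 1.42.0, limma voom 3.58.1, other filters, scaling and dispersions, fits to 2 groups at a time, blocking on replicate numbers, the library sets and leaving out libraries. The scripts were tested on simulated data.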

Additional observations from a re-analysis of the deposited data

Results flagged for a closer look

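In each group of 4 libraries, the gap of the highest or lowest library to the next was divided by the group's range and set against Dixon's critical value at 95%. Of 40 gene and group combinations, 18 passed it, and in all 18 the library was WT-labelled replicate 1, above the others. Chance alone passes about 1 in 20 if the libraries of a group are independent draws of like spread. The chi-square values per gene given above show that WT-labelled replicate 1 stood apart from the rest of its group well beyond these 10 genes. The share of all genes that pass was not counted. The 18 therefore describe that library and cannot be read as a trait of the 10 genes. The 10 genes share libraries, so the 18 are not independent.

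Without T3, replicate 1 had 1203 CPM of Gpr17 (487 to 517 in replicates 2 to 4), 181 of Bmp4 (26.3 to 28.3), 1479 of Enpp6 (372 to 433), 1992 of Bcas1 (546 to 595), 176 of Tmem163 (71.5 to 79.2), 50.9 of Kif19a (8.68 to 10.0), 241 of Cnksr3 (115 to 123), 86.9 of Rras2 (49.1 to 53.3), 447 of Itpr2 (125 to 136) and 1572 of Tns3 (736 to 813).

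With T3, replicate 1 had 884 CPM of Gpr17 (353 to 396), 68.5 of Bmp4 (10.2 to 11.3), 1203 of Enpp6 (597 to 600.3), 2049 of Bcas1 (772 to 852), 204 of Tmem163 (140.3 to 142), 132 of Kif19a (72.3 to 79.2), 297 of Cnksr3 (156 to 178) and 382 of Itpr2 (149 to 174). Rras2 and Tns3 did not pass with T3.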

How the results depend on the processing

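Of 145 alternative counts of called members, 122 stayed within 1.5 times the count reported. These counts are of calls in either direction. For T3 under the WT label (2 called), the count was 1 by DESeq2, 7 with a replicate block fitted to the WT-labelled libraries alone, 8 with the library set as a term, 0 with counts summed per set and 5 without WT-labelled replicate 1. For T3 under the RXRgKO label (4), it was 7 with the set term, 0 summed per set, 7 without WT-labelled replicate 1 and 0 without the libraries with Xist. Between untreated labels (4) it was 8 with the set term and 1 summed per set. With T3 (3) it was 1 with no low-count filter, 8 with the set term, 0 summed per set and 5 without WT-labelled replicate 1 (2 higher and 3 lower). For the response difference (0) it was 1 by DESeq2, 4 with the set term, 1 without WT-labelled replicate 1 and 1 without the libraries lacking Xist. The set term, the replicate block and the fits without WT-labelled replicate 1 treat the libraries of a set as independent replicates, and sums leave 2 values a group. Leaving out each library gave 2 to 4, 2 to 4, 4 to 5, 2 to 4 and 0 to 0 calls in the 5 comparisons in that order. Without untreated WT-labelled replicate 1 the first was 4, and without untreated RXRgKO-labelled replicate 1 or treated RXRgKO-labelled replicate 3 or 4 the second was 2. Between untreated labels 3 values passed the threshold with the opposite sign: Bmp4 to 1.23 and Bcas1 to 0.467 without WT-labelled replicate 1, and Bmp4 to 0.535 with the set term. Other uncalled values changed sign without passing it. The replicate block over all 16 libraries changed the call of Bmp4 with T3 between labels (1.96) and no other call of the 10 genes. Over all genes, T3 under the RXRgKO label gave 555 calls, and 1194 by DESeq2, 1540 without WT-labelled replicate 1 and 129 without the libraries with Xist. T3 under the WT label gave 1668, and 5084 with the block on those libraries. The response difference gave 13, and 112 by DESeq2 and 4 with the block over all libraries. The set term raised the 5 counts to 7599, 6634, 7439, 8408 and 1321, and sums per set left 15, 3, 141, 110 and 0. The causes of these changes were not tested.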
